A study of Drosophila melanogaster with 4 samples.

Results

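Ovarian somatic cells (OSCs), a cultured Drosophila melanogaster line from the somatic part of the ovary, received siRNAs against piwi (siPiwi) or against EGFP, a sequence that fly cells do not carry (siEGFP). RNA was taken 4 days later in both groups, which shared the same medium with fly extract, serum, insulin and glutathione. The question was which host genes, as opposed to transposable elements (TEs), differed between these 2 conditions. The deposited transcript table gave 16757 genes as FPKM, the number of fragments scaled to transcript length and to the depth of the library, after the transcripts of each gene were summed. The 7947 genes with a mean of at least 1 FPKM over the 4 libraries of the series are described here, and 8810 genes lay below that level. Just inside it were CG11902 and CG34236, with means of 1.0004 and 1.0016 FPKM, and just outside it tim and His3:CG33851, with 0.999 and 0.998. The other 2 libraries came from cells treated with an siRNA against Mi-2 (siMi2) and from cells labelled siRpd3. Their values are given only beside those of siPiwi.

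Each condition had 1 library, so no test between conditions was possible and none is given. The library labelled siRpd3 did not hold less Rpd3 RNA than siEGFP (HDAC1, 104 against 71.3 FPKM), and its values are given under that label. As a check of RNAi in OSCs, the study shows western blots of Piwi, Mi-2 and Rpd3 protein after knockdown. It does not state whether those blots came from the cultures that were sequenced, and RNA levels do not measure protein. The intervals below are exact 95% counting intervals on read pairs. They cover counting error only and hold no spread between cultures.

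Piwi is an Argonaute protein that binds small piRNAs, enters the nucleus and, guided by them, directs transcriptional silencing of TEs through H3K9 methylation and HP1. In the somatic cells of the ovary many of these piRNAs come from the flamenco locus, whose main targets are retrotransposons of the gypsy group. Silencing marks laid down at a TE copy can spread to genes nearby. Host genes are therefore of interest both as neighbours of TEs and as part of the wider state of the cells.

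Piwi RNA itself was at 73.5 FPKM in siEGFP and 38.9 in siPiwi, against 104 in siMi2 and 84.6 in the library labelled siRpd3. This was the lowest value of the 4 libraries, with a log2 difference between siPiwi and siEGFP of -0.92 (interval -0.99 to -0.84). The piwi gene (chr2L:10982205-10987420, dm6) overlaps SCAR, and the counting was not stated to use strand. RNA mapped to TEs, given only as background, made up 2.49% of mapped reads in siEGFP and 4.42% in siPiwi, and 29 of 109 TEs present in both libraries were above 2-fold.

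The bulk of the transcriptome did not stay level between the libraries. The median log2 difference over all genes, taken from FPKM + 0.1, was 0.29, and it grew with the length of the transcript. For the 1740 genes below 1000 nt the median was 0.06, for the 4422 genes from 1000 to 3000 nt it was 0.28, and for the 553 genes of 5000 nt or more it was 0.69. Without any adjustment 906 genes (11.4%) were above 2-fold and 202 (2.54%) were below 0.5-fold. Of the genes of 5000 nt or more, 175 were above 2-fold in this sense.

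**Figure D1:**
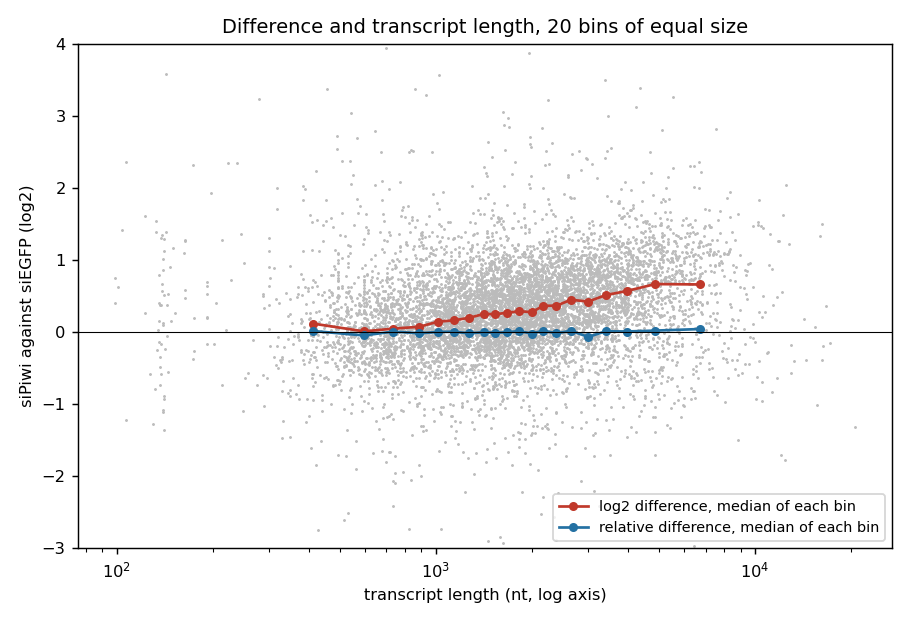
Log2 difference between siPiwi and siEGFP for each gene (grey points) against transcript length in nt on a log axis, with medians of 20 bins of equal size before (red) and after (blue) subtraction of the median of similar genes. The unadjusted medians climb with length, while the adjusted medians stay close to 0. The vertical axis is limited to -3 to 4, which leaves out 33 genes.

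Each gene was therefore also compared with the 200 genes nearest to it in mean FPKM and transcript length. The relative difference is its log2 difference minus the median of those genes, which ranged from -0.22 to 0.96. On this scale 331 genes (4.17%) were above 2-fold and 390 (4.91%) were below 0.5-fold, and the middle 50% of genes lay between -0.32 and 0.33. The relative scale moved the balance: it has more genes on the low side, the unadjusted scale more on the high side. Of the 390 low genes 197 were also below 0.5-fold before adjustment, and of the 331 high genes 329 were above 2-fold before it. A low relative difference can thus belong to a gene that was only slightly lower, or level, among long genes that were mostly higher.

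**Figure D2:**
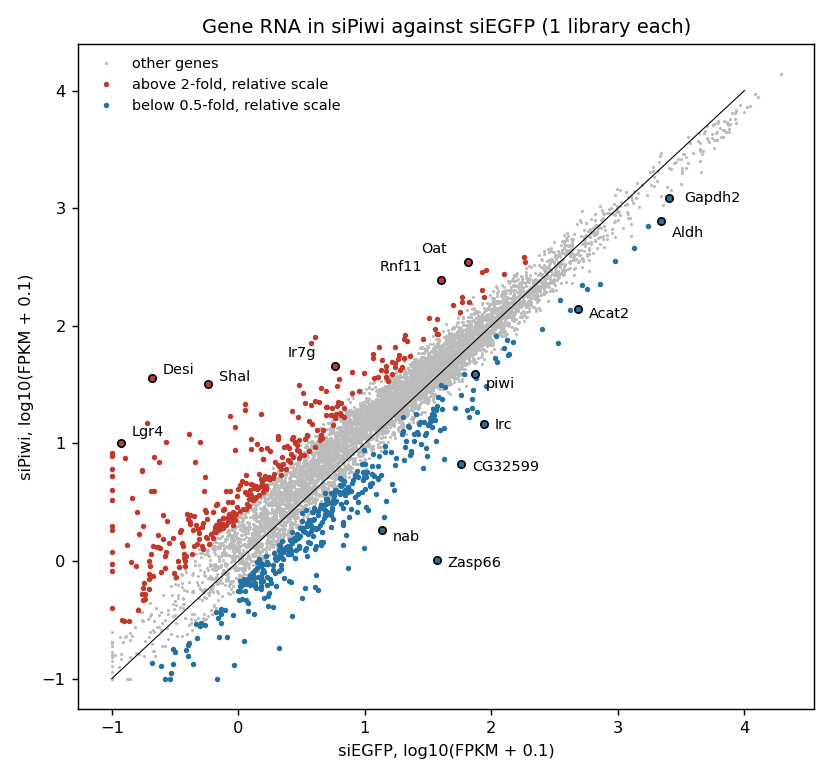
FPKM of 7947 genes in siEGFP (horizontal) and siPiwi (vertical), both as log10(FPKM + 0.1), with the line of equality. Red points are the 331 genes above 2-fold and blue points the 390 genes below 0.5-fold on the relative scale, and genes of the text are circled. High genes crowd at the low end of siEGFP, and Desi, Shal and Lgr4 stand far above the line.

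Of the 331 high genes 157 were below 1 FPKM in siEGFP and 174 were at 1 FPKM or more. The former made up 23.3% of the 675 genes below 1 FPKM in siEGFP. Such a gene entered the set only if another library raised its mean, so part of this share follows from the filter. For 372 genes both siEGFP and siPiwi were below 1 FPKM, so they entered only through siMi2 or the library labelled siRpd3. Of the genes named below, Obp99a, capu, Shaw, ex, srp, E(spl)malpha-BFM, Eip74EF and Pvf3 are among these, and their differences lie at low levels. Among the 2874 genes at 1 to 10 FPKM in siEGFP, 128 were high and 242 low. At 10 to 100 FPKM the counts were 43 and 88 of 3360 genes, and at 100 FPKM or more they were 3 and 21 of 1038.

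Desi (Desiccate, a membrane protein tied to resistance of larvae to drying) had the highest relative difference, 7.09. It was at 0.108 FPKM in siEGFP, 36.2 in siPiwi, 0.110 in siMi2 and 1.13 in the library labelled siRpd3. The RNA was thus by far the highest in siPiwi, at a ratio of 334 to siEGFP (interval 92.0 to 2761, from 4 reads in siEGFP). The gene lies at chr3R:10779569-10780825 on the plus strand and overlaps no other annotated gene.

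CG15278 and CG42335, both without an assigned name, were likewise seen almost only in siPiwi. CG15278 (chr2L:14874376-14876333) was at 8.11 FPKM in siPiwi and listed at 0 in the other 3 libraries. With siEGFP set at the floor of 6 reads (3 read pairs) it was at least 59.2-fold higher. CG42335 (chr3R:21758764-21769301) was at 7.68 FPKM in siPiwi, at 0 in siEGFP and siMi2 and at 0.0990 in the library labelled siRpd3, at least 131-fold higher than siEGFP. Together with Desi these genes were at or near 0 in siEGFP and above 5 FPKM in siPiwi.

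Membrane receptors and channels made up several of the other high genes. Shal, a voltage-gated potassium channel of the A type, was at 0.477 FPKM in siEGFP, 31.8 in siPiwi, 4.599 in siMi2 and 6.35 in the library labelled siRpd3. Its ratio to siEGFP was 66.6 (interval 44.8 to 105), and every other library also lay above siEGFP. Lgr4, a G protein-coupled receptor with leucine-rich repeats, was at 0.0183 FPKM in siEGFP, 9.93 in siPiwi, 0.960 in siMi2 and 4.24 in the library labelled siRpd3. Its ratio of 542 rests on 2 reads in siEGFP (interval 95.1 to 21063), so that its size is hardly fixed. Grd, a ligand-gated ion channel subunit related to GABA receptors, went from 0.114 to 7.54 FPKM, with 0.605 and 0.783 in the other 2 libraries. It overlaps CG5577, which was itself above 2-fold (1.41 to 4.86 FPKM, relative difference 1.45), and the reads of overlapping genes cannot be told apart with certainty.

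Ionotropic receptors, a family of sensory receptors related to glutamate receptors, held 4 of the genes above 2-fold. Ir68a, a receptor of moisture-sensing neurons, was at 0.0892 FPKM in siEGFP and 14.8 in siPiwi, with 1.70 in siMi2 and 14.8 in the library labelled siRpd3. The noncoding genes lncRNA:CR44718 and lncRNA:CR44719, which lie directly beside it at chr3L:11236500-11237620 and overlap each other on opposite strands, had a similar profile. The former was at 0.170, 10.2, 0.913 and 10.0 FPKM in siEGFP, siPiwi, siMi2 and the library labelled siRpd3. The latter was listed at 0 in siEGFP and was at 5.93 in siPiwi, 0.174 in siMi2 and 6.82 in the library labelled siRpd3, at least 11.6-fold higher in siPiwi. The 3 neighbours were thus highest in siPiwi and in the library labelled siRpd3, and siMi2 lay between these and siEGFP.

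The receptors Ir10a, Ir7f and Ir7g had their highest values in siPiwi. Ir10a was at 0.394 FPKM in siEGFP, 10.3 in siPiwi, 1.46 in siMi2 and 2.83 in the library labelled siRpd3. The neighbours Ir7f and Ir7g (chrX:7881939-7886976, on opposite strands) were high as well. Ir7g was at 5.704 FPKM in siEGFP, 45.6 in siPiwi, 3.91 in siMi2 and 4.23 in the library labelled siRpd3, and Ir7f at 1.40, 8.80, 0.935 and 0.896. Reads that match both of the related genes Ir7f and Ir7g may have been assigned to either. Ir40a, at 9.72 FPKM in siEGFP and 11.95 in siPiwi, had a relative difference of -0.18. Of the whole set of odorant, gustatory and ionotropic receptors and odorant-binding proteins, 22 of 258 were measured, 5 were above 2-fold, 4 below 0.5-fold, and the median relative difference was 0.05. The odorant-binding proteins Obp56e (3.29 to 0.494 FPKM), Obp44a (2.91 to 1.18) and Obp99a (0.186 to 0) were among the low ones. Obp99a was below 1 FPKM in both libraries, and Obp56e and Obp44a each overlap another gene.

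Among the remaining genes at the top, neo, which encodes a zona pellucida domain protein of the apical extracellular matrix, went from 0.0727 to 5.80 FPKM, with 1.43 in siMi2 and 7.05 in the library labelled siRpd3. CG1317 went from 0.0282 to 7.38 FPKM, CG32944 from 0.0724 to 5.73, and CG43938, which overlaps ko, from 0 to 3.93. The noncoding lncRNA:CR45234 was listed at 0 in siEGFP and was at 5.14 FPKM in siPiwi, 0.145 in siMi2 and 8.62 in the library labelled siRpd3. Its annotated neighbour hid (chr3L:18167745-18185641), an activator of apoptosis that blocks the inhibitor Diap1, was at 0.185, 1.32, 0.989 and 10.2 FPKM in the 4 libraries, a relative difference of 2.01 in siPiwi. A transcript that the reference tables did not name completed the 15 (0 to 3.22 FPKM). Of these 15 genes 3 were noncoding.

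**Figure D3:**
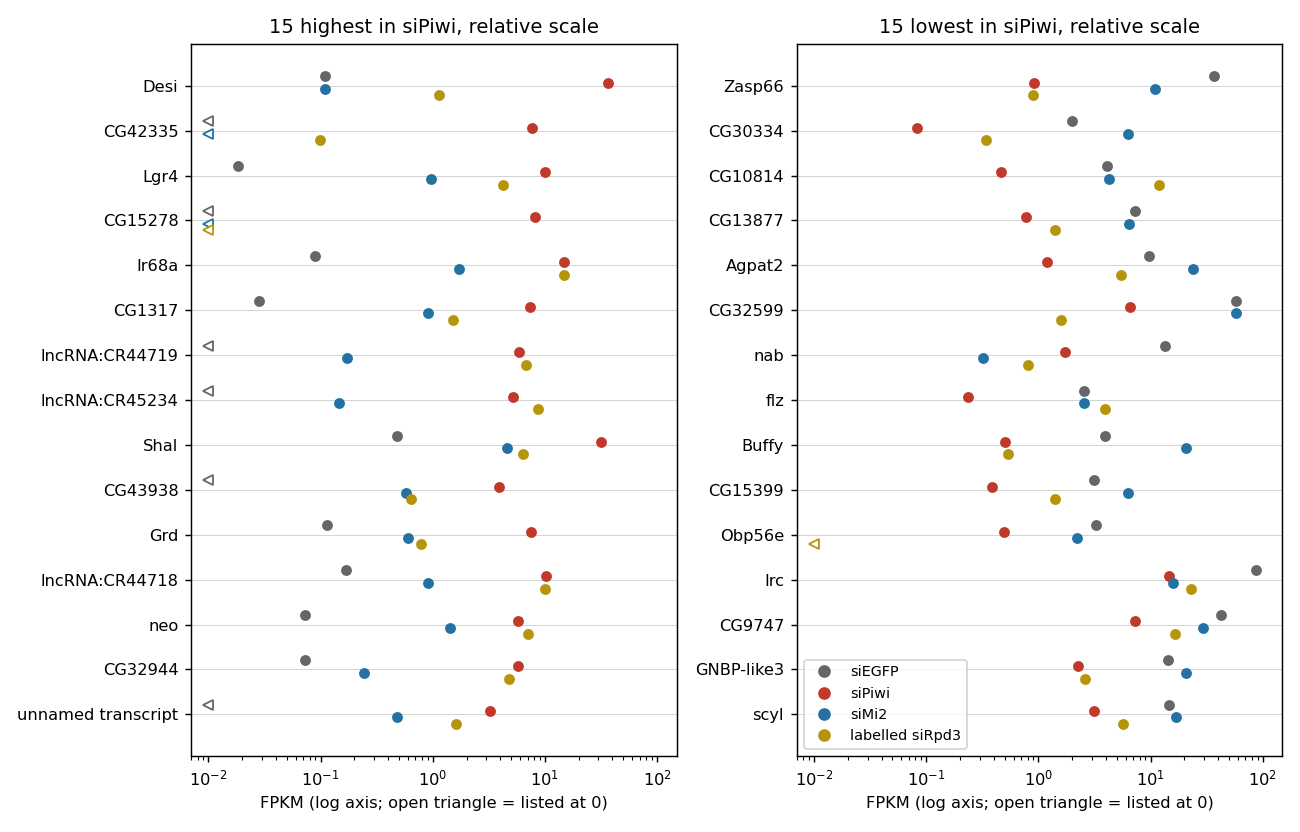
FPKM on a log axis in the 4 libraries for the 15 genes with the highest (left) and the 15 with the lowest (right) relative difference, 1 row per gene, with open triangles for values listed at 0. The red siPiwi points are the rightmost in 11 of the 15 rows on the left and the leftmost in 11 of the 15 rows on the right. The rows were picked by the difference between siPiwi and siEGFP, which favours such positions.

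Zasp66, a PDZ domain protein of the muscle Z-disc, had the lowest relative difference, -5.54. It was at 37.1 FPKM in siEGFP, 0.922 in siPiwi, 10.9 in siMi2 and 0.888 in the library labelled siRpd3. The siPiwi value was thus 2.49% of that in siEGFP, from 2099 and 56 reads. The gene spans chr3L:8624371-8638813 and overlaps Cdc6. On the relative scale no other of the 9 measured muscle genes was past 2-fold in either direction, and their median relative difference was -0.14.

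The other low genes encode proteins of varied function. The transcription cofactor nab was at 13.6 FPKM in siEGFP, 1.74 in siPiwi, 0.321 in siMi2 and 0.802 in the library labelled siRpd3, and so was highest in siEGFP by a wide margin. Buffy, a member of the Bcl-2 family of apoptosis regulators, was at 3.94 FPKM in siEGFP, 0.506 in siPiwi and 0.531 in the library labelled siRpd3, but at 20.5 in siMi2. Irc, an immune-regulated catalase that breaks down peroxide, was at 87.6 FPKM in siEGFP and at 14.6, 15.96 and 23.02 in siPiwi, siMi2 and the library labelled siRpd3. All 3 other libraries were thus lower for Irc and nab, while Buffy went in opposite directions. CG32599 was at 57.9 FPKM in siEGFP, 6.56 in siPiwi, 57.4 in siMi2 and 1.59 in the library labelled siRpd3, the lowest value.

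Several of the lowest genes were lower in siPiwi than in any other library. Agpat2, an acyltransferase of phospholipid synthesis, was at 9.76 FPKM in siEGFP, 1.19 in siPiwi, 24.0 in siMi2 and 5.42 in the library labelled siRpd3. The serine protease gene flz was at 2.54, 0.238, 2.57 and 3.92 FPKM, and CG10814 at 4.13, 0.469, 4.29 and 11.8. The desaturase gene CG9747 was at 42.1, 7.24, 29.5 and 16.4 FPKM. For CG30334 the value in siPiwi rests on 2 reads (1.99 to 0.0824 FPKM, ratio interval 0.00102 to 0.258).

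Among genes past 2-fold on the relative scale the widest differences in FPKM were those of Aldh, Gapdh2 and Taldo, all lower in siPiwi. Aldh, the mitochondrial aldehyde dehydrogenase, was at 2188 FPKM in siEGFP, 778 in siPiwi, 1175 in siMi2 and 363 in the library labelled siRpd3. Gapdh2 of glycolysis was at 2555, 1218, 1568 and 429 FPKM. Taldo, the transaldolase of the pentose phosphate pathway, was at 1738, 705, 815 and 405 FPKM. In each of these genes siEGFP was the highest library and the library labelled siRpd3 the lowest.

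Argk1, the arginine kinase that buffers ATP, was at 1334 FPKM in siEGFP and 458 in siPiwi. Inos, which makes inositol phosphate from glucose 6-phosphate, was at 954 and 354 FPKM, and Acat2, an acetoacetyl-CoA thiolase, at 484 and 139. The metallothionein MtnA, a small protein that binds metal ions, was at 568.6 and 204.96 FPKM. The rest of the 10 genes with the widest differences on the low side were bero, CG9521 and MFS3, with relative differences of -1.47, -1.82 and -1.35. Counting error is small for all 10, with the widest interval of the log2 difference at -1.55 to -1.39 for MtnA.

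The genes past 2-fold on the high side differed less in FPKM than these first 3. Oat, the ornithine aminotransferase of proline and arginine metabolism, was at 65.2 FPKM in siEGFP, 351 in siPiwi, 163 in siMi2 and 92.0 in the library labelled siRpd3. Rnf11, a RING finger gene, was at 39.8, 246, 108 and 90.01 FPKM. In both genes siPiwi was the highest and siEGFP the lowest of the libraries, with log2 differences of 2.43 (interval 2.36 to 2.50) for Oat and 2.63 (interval 2.55 to 2.70) for Rnf11. The others were CG8607, lncRNA:CR43264, Adk2 (adenylate kinase), GstT3, bel (a DEAD-box RNA helicase), eff (a ubiquitin-conjugating enzyme), lig and CG9135, with relative differences from 1.04 to 1.85.

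Gene groups are described by how many measured members lay above the median of similar genes, a count that held 49.8% of all genes, and by how many were past 2-fold, against 4.17% high and 4.91% low of all genes. These counts are on the relative scale, so a gene named as below 0.5-fold can show a smaller difference in the FPKM printed beside it. The proteasome degrades ubiquitinated proteins. Of its 32 subunits 30 lay above similar genes, with a median relative difference of 0.37 and none past 2-fold. Rpt4 (111 to 208 FPKM) and Rpn6 (157 to 276) had the highest values, 0.88 and 0.78. Only Prosalpha4 (649 to 632) and Prosbeta5 (617 to 620) lay below, at -0.05 and -0.01. The 32 subunits summed to 9686 FPKM in siEGFP, 11752 in siPiwi, 11949 in siMi2 and 12995 in the library labelled siRpd3. The sum was thus lowest in siEGFP and not highest in siPiwi. On the unadjusted scale the median was 0.36, and after scaling of the libraries to their median genes it was 0.06, so the height of this group is a statement relative to genes of like level and length.

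The subunits of the dNuRD and dMec complexes, chromatin remodellers that share Mi-2, also lay above similar genes. All 6 measured subunits other than those targeted were above similar genes, with a median relative difference of 0.50, which became 0.97 unadjusted. These 6 summed to 134 FPKM in siEGFP, 239 in siPiwi, 195 in siMi2 and 395 in the library labelled siRpd3, so the rise was not particular to siPiwi. MEP-1, a zinc finger protein of the dMec complex, was at 13.9 FPKM in siEGFP and 29.2 in siPiwi, and its relative difference of 0.37 was -0.04 when only the transcript with the highest mean was used. The targeted genes of the other libraries, Mi-2 (34.4 to 69.3 FPKM) and HDAC1 (71.3 to 109), had relative differences of 0.32 and 0.36. None of these genes was past 2-fold on the relative scale.

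Genes of ribosome biogenesis and splicing leaned the same way. Of 35 genes of ribosome biogenesis 27 lay above similar genes with a median of 0.26, and of 34 splicing genes 26 did so with a median of 0.24. Of 36 actin and myosin genes 26 lay above, with a median of 0.34, and capu, an actin nucleator of the oocyte, was past 2-fold (0.161 to 0.766 FPKM). Cell cycle genes had 27 of 39 above with a median of 0.24. Each of these medians is under 1.5-fold in size and has no replicate behind it.

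Ribosomal protein genes lay on the other side. Of 78 measured genes for cytoplasmic ribosomal proteins 23 were above similar genes, with a median relative difference of -0.20 and an unadjusted median of -0.36. Their summed level was 419999 FPKM in siEGFP and 314941 in siPiwi. RpL38 had the lowest value (4544 to 2026 FPKM, relative difference -0.97). RpS10a, a copy at low level that overlaps tau, was the member past 2-fold (2.53 to 8.09 FPKM). Of 73 genes for mitochondrial ribosomal proteins 26 lay above, with a median of -0.18. Because these genes share short transcripts and high levels, their unadjusted medians also carry the trend with length described above.

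Most glycolytic genes lay below similar genes, and 1 of them, Gapdh2, was below 0.5-fold. Of 16 glycolytic genes 3 lay above similar genes, and the median relative difference was -0.36 (unadjusted -0.24). Ldh, the lactate dehydrogenase, was at 2632 FPKM in siEGFP, 1436 in siPiwi, 734 in siMi2 and 324 in the library labelled siRpd3. Pfk, the phosphofructokinase, was at 122, 82.2, 62.7 and 67.9 FPKM. Gapdh2, given above, had a relative difference of -1.08. In each of these 3 genes each of the other 3 libraries was below siEGFP.

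The pentose phosphate pathway and other sources of NADPH formed a list that was added after these values were seen. Of its 10 genes 2 lay above similar genes and 3 were below 0.5-fold, with a median of -0.38. Men, the malic enzyme, was at 251 FPKM in siEGFP, 94.4 in siPiwi, 401 in siMi2 and 110 in the library labelled siRpd3. Taldo is given above, and Nadk2, an NAD kinase, was at 11.2 and 6.30 FPKM in siEGFP and siPiwi. Fatty acid genes had 4 of 23 above similar genes and a median of -0.26, which was 0.12 without adjustment. Acsl, an acyl-CoA synthetase, was the member below 0.5-fold (8.31 to 5.14 FPKM, relative difference -1.17).

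**Figure D4:**
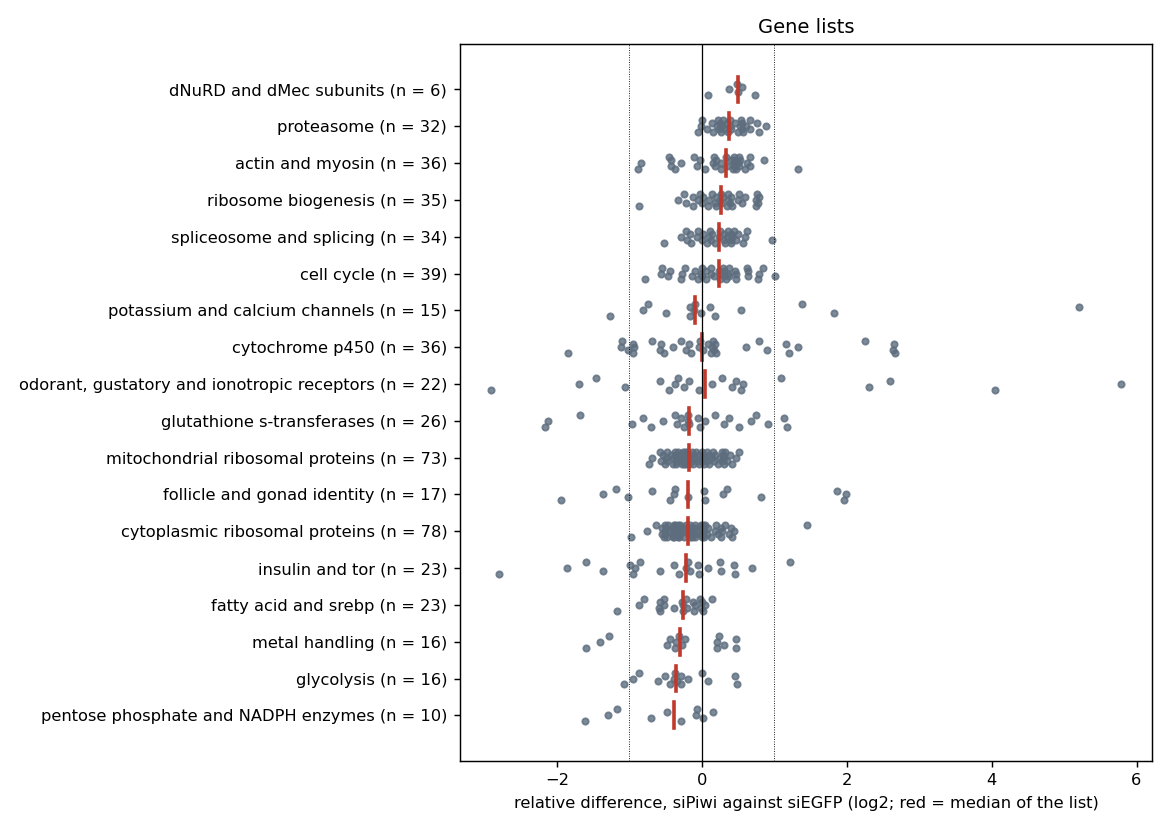
Relative difference (log2) of each measured member (grey points) of 18 gene lists, with the median in red and dotted lines at 2-fold in either direction. Proteasome subunits form a tight cloud right of 0 with a median of 0.37, glycolytic genes lie mostly left of 0 with a median of -0.36, and channels, receptors and cytochrome P450 genes spread widely around medians near 0.

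In the insulin and TOR pathway, which couples nutrition to growth, 4 of 23 genes were below 0.5-fold and 1 was above 2-fold. The low genes act as brakes or as an adaptor. The TOR inhibitor scyl was at 14.6 FPKM in siEGFP, 3.10 in siPiwi, 16.8 in siMi2 and 5.63 in the library labelled siRpd3. The paralog chrb was at 1.78, 0.732, 3.21 and 2.71. ImpL2, a secreted protein that binds insulin-like peptides and that also belongs to the ecdysone-induced genes, was at 90.1, 30.6, 81.5 and 21.9 FPKM. Chico, the insulin receptor substrate, was at 1.08 FPKM in siEGFP and 0.337 in siPiwi. The high gene was Ilp6, an insulin-like peptide, at 22.8 and 54.7 FPKM, which overlaps Raf. The median of the pathway was -0.22 relative to similar genes and 0.11 unadjusted.

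Detoxifying enzymes went both ways. Of 36 measured cytochrome P450 genes 7 were above 2-fold and 4 below 0.5-fold, around a median of 0.00. Cyp12e1 was at 3.14 FPKM in siEGFP, 26.8 in siPiwi, 0.512 in siMi2 and 3.82 in the library labelled siRpd3, high in siPiwi alone. Cyp6d5 was the lowest (22.9 to 8.15 FPKM). Of 26 glutathione S-transferases GstD2 (77.5 to 18.5 FPKM), GstD5 (23.2 to 8.54) and GstE9 (10.4 to 2.63) were below 0.5-fold, while GstS1 (37.7 to 84.4) and GstT3 (125 to 275) were above 2-fold. The D and E genes belong to tandem families, and reads shared between close paralogs may have been split.

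Genes of follicle and gonad identity also divided. Of 17 measured genes 3 were above 2-fold. The adhesion protein Fas3, a marker of somatic ovary cells, was at 1.57 FPKM in siEGFP, 9.12 in siPiwi, 4.51 in siMi2 and 49.4 in the library labelled siRpd3. The transcription factors eya (7.84 to 40.1 FPKM) and bab1 (0.583 to 2.92) were the others. Below 0.5-fold were the transcription factors chinmo (1.62 to 0.403) and mamo (1.78 to 0.833) and, on the relative scale alone, the transcription factor zfh1 (3.69 to 2.51) and the FGF ligand bnl (4.73 to 2.92). The defining somatic marker tj was at 64.0 FPKM in siEGFP and 109 in siPiwi, and fs(1)Yb, a somatic piRNA factor, at 53.3 and 70.2, so both libraries carried the RNA of the labelled cell type. Fas2, an adhesion protein of follicle cells and neurons, was at 1.17 and 10.9 FPKM.

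Markers of other cell types were mostly at low levels in both libraries. The 13 germ cell markers summed to 70.7 FPKM in siEGFP and 86.6 in siPiwi, most of it from vret, krimp and spn-E. Of these, vret (43.9 FPKM in siEGFP) is also on the list of somatic piRNA factors, and the study uses krimp as an endogenous gene of OSCs. The sum therefore does not measure germ cell RNA. The markers zpg and orb were at 0 in both and vas was at 0.0243 and 0.298. The 7 haemocyte markers summed to 2.02 and 10.8 FPKM, with eater, Hml and NimC1 at 0 in both. Pxn, a peroxidase of the extracellular matrix, made up most of that sum (1.31 to 9.80 FPKM). The GATA factor srp was at 0.113 and 0.650 and He at 0 and 0.0950, while lz went the other way, at 0.592 and 0.208. All of these but Pxn were below 1 FPKM in both libraries, and srp passed the filter through its 10.4 FPKM in the library labelled siRpd3. The 6 neuronal markers summed to 3.18 and 2.38 FPKM, the 6 muscle markers to 2.78 and 4.00, the 3 intestinal markers to 5.59 and 3.04, and the 4 fat body markers to 0.0333 and 0.00484. In these bulk libraries a change in the share of a cell type cannot be told apart from a change of RNA within cells.

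Genes of the piRNA and small RNA pathways stayed mostly within 2-fold. None of 15 nuclear factors that act with Piwi was past 2-fold, and their median relative difference was -0.02. Of 13 somatic piRNA factors SoYb, a Tudor protein related to Yb, was below 0.5-fold (1.49 to 0.388 FPKM), with overlapping CG31875. Of 11 germline piRNA genes tud (1.72 to 0.548) and del (2.69 to 0.951) were below 0.5-fold and squ (13.3 to 41.6), which overlaps grp, was above 2-fold. Dcr-2, the Dicer of the siRNA pathway, was at 14.2 and 8.42 FPKM, a relative difference of -1.66.

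Potassium and calcium channels included Shal, KCNQ (1.96 to 10.8 FPKM) and Shaw (0.271 to 0.960) above 2-fold and SK (2.73 to 1.45) below 0.5-fold among 15 measured, around a median of -0.10. KCNQ overlaps mlt, which went from 0.135 to 6.86 FPKM. The Hippo gene ex (expanded), which the study names for a TE within its locus, was at 0.0953 FPKM in siEGFP, 0.679 in siPiwi, 1.22 in siMi2 and 3.81 in the library labelled siRpd3. Its ratio of 7.12 rests on 23 reads in siEGFP (interval 3.71 to 13.7). Krimp, a Tudor protein of piRNA production, was at 10.7 and 11.3 FPKM, a relative difference of -0.40.

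Some high genes lay next to each other. Along the chromosomes 42 of 7877 pairs of adjacent measured genes were both above 2-fold, and of the neighbours of a high gene 12.9% were high, against 4.17% of all genes. Of these 42 pairs 7 overlapped, against 1711 of all 7877 adjacent pairs. In 35 adjacent pairs both genes were below 0.5-fold, and 9.06% of the neighbours of a low gene were low, against 4.91% of all genes. In all 73 high genes lay in 31 runs of at least 2, and 9 runs held 3 or more. The share of high genes varies with level: 23.3% below 1 FPKM in siEGFP, but 174 of 7272 genes at 1 FPKM or more. A share of neighbours matched for level was not calculated.

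The longest runs held 4 genes. On chr2L:7333714-7398750 these were Wnt6 (1.45 to 7.29 FPKM), CG5149 (20.2 to 52.6), gudu (0.835 to 8.65) and CG5160 (0.655 to 1.80). Wnt6 encodes a secreted signal of the Wnt family, and it reached 77.2 FPKM in the library labelled siRpd3. On chr2R:14873953-14886947 the run was the cytochrome P450 cluster of Cyp6a17 (0.767 to 2.27 FPKM), Cyp6a19 (0.132 to 1.58), Cyp6a9 (3.26 to 21.9) and Cyp6a21 (0.434 to 3.82). These 4 are close paralogs, and Cyp6a9 and Cyp6a19 overlap, so that shared reads may tie their values together.

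Runs of 3 included Ir68a with its noncoding neighbours, given above, and Cpr67Fa2, asRNA:CR45171 and Cpr67Fb (chr3L:10891714-10894743), where Cpr67Fb, a cuticle protein gene, went from 2.92 to 31.1 FPKM. Another held CG1146 (4.57 to 12.8 FPKM), Spn (11.5 to 57.3) and msn (9.78 to 39.7) on chr3L:2488804-2586540. Spn encodes Spinophilin, a scaffold for protein phosphatase, and msn a kinase of the JNK pathway. Pairs included the chitinase-like growth factors Idgf2 (11.5 to 53.5) and Idgf3 (3.92 to 23.02) and the lipid phosphate phosphatases wun (0.585 to 1.78) and wun2 (0.154 to 1.45), both of them tandem duplicates.

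Chromosome 4 had the lowest median of the chromosomes. It is short and largely heterochromatic, with genes embedded among TEs and HP1. Of its 60 measured genes 48 lay below similar genes, and the median relative difference was -0.56 (middle 50% from -0.89 to -0.09). On the 5 other arms the medians lay between -0.02 and 0.03. On chromosome 4 13 genes (21.7%) were below 0.5-fold, against 3.40% to 5.55% on the other arms, and 2 (3.33%) were above 2-fold. Unadjusted, the median of chromosome 4 was -0.20, against 0.29 for all genes.

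The low genes there included eIF4G1, the scaffold of translation initiation (4.97 to 2.47 FPKM), PMCA, a calcium pump of the plasma membrane (5.46 to 3.19), and ci, the transcription factor of the Hedgehog pathway (2.94 to 1.25). Kif3C, a kinesin, was at 20.01 FPKM in siEGFP, 12.6 in siPiwi, 43.2 in siMi2 and 5.79 in the library labelled siRpd3. PlexA (9.34 to 6.64 FPKM), Gyf (6.70 to 4.64), Taf3 (2.81 to 1.57) and Mitf (3.49 to 2.12), a regulator of lysosomal genes, were further members. The main exception was Rnf11, which overlaps PMCA and was at 2.37 above similar genes. Highly expressed genes of the chromosome differed little, as RpS3A was at 2514 and 2184 FPKM, and ATPsynbeta at 836 and 904.

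For the 27 genes of chromosome 4 with at least 5 FPKM in siEGFP the median was -0.25, against -0.02 for the 5349 such genes in all, and 4 were below 0.5-fold. The same 60 genes had a median relative difference to siEGFP of 0.49 in siMi2 and -0.87 in the library labelled siRpd3. All 3 values share the siEGFP library, so they are set side by side without a comparison.

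**Figure D5:**
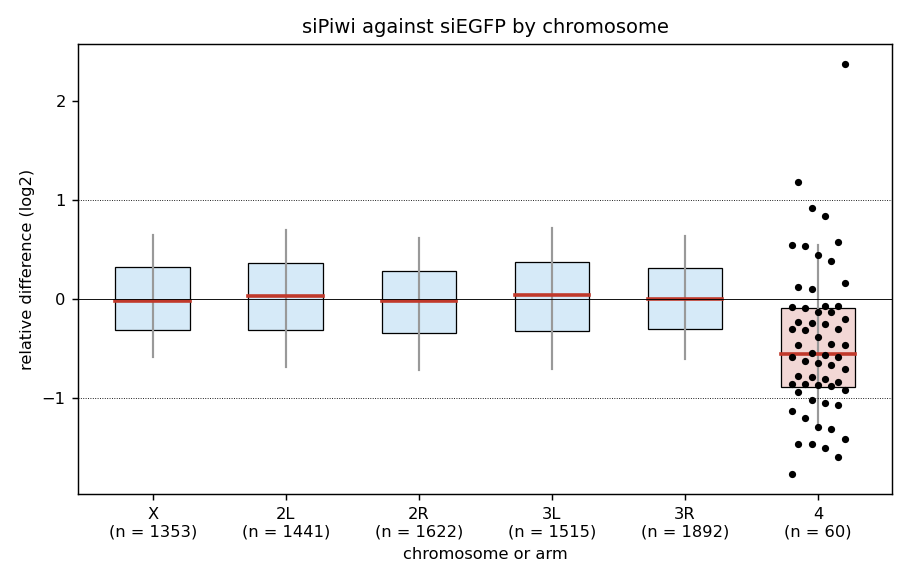
Relative difference (log2) of measured genes by chromosome or arm, with boxes from the 25th to the 75th percentile, red medians, whiskers from the 10th to the 90th percentile and, for chromosome 4, each of its 60 genes as a point. The median of chromosome 4 is -0.56 and those of the other arms lie between -0.02 and 0.03, with Rnf11 as the topmost point at 2.37.

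Noncoding genes held many members past 2-fold. Of 140 long noncoding genes 26 (18.6%) were above 2-fold and 16 (11.4%) below 0.5-fold, against 3.64% and 4.76% of 7500 protein-coding genes. Their median level in siEGFP was 2.87 FPKM, against 14.5 for coding genes, so their differences rest on fewer reads. Of 146 antisense genes 12 were above and 4 below, and their reads cannot be separated from those of the opposite strand. Small nuclear and nucleolar RNAs, of which 76 were measured, had 13 above and 9 below. They are not polyadenylated, are shorter than the fragments of such libraries, and have copies or host genes that share their reads, so no direction is drawn from them.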

How the data were processed

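OSCs were transfected with siRNA duplexes and harvested after 4 days, with 1 library for each of the 4 conditions. According to the methods of the study, poly(A) RNA was sequenced on a HiSeq2500 and reads were mapped with bowtie2 (Bowtie2 2.2.4, per the labels) to dm6 and to a transcriptome of genes and TEs. The authors deposited FPKM values per transcript and per TE, calculated from coverage scaled to library depth. The deposited FPKM values of the transcripts of each gene were summed here, and 99.3% of 35327 rows were matched to a RefSeq gene of the Release 6 assembly by accession or symbol.

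Read numbers were recovered from the spacing of low FPKM values. They gave 36702889 mapped reads for siEGFP, 38060116 for siPiwi, 36143523 for siMi2 and 32638866 for the library labelled siRpd3, and 97.3% to 97.8% of values of intronless genes came out whole within 0.001 reads. Of the read numbers below 10, 72.0% to 77.5% were even, as mates of a pair would give, so intervals were calculated on read pairs (exact Clopper-Pearson, 95%), with a floor of 3 pairs. Transcript lengths came from the Ensembl annotation (97.5% of rows above 0). For a 5000 nt transcript the floor of 6 reads is 0.0327 FPKM in siEGFP and 0.0315 in siPiwi.

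Genes with a mean of at least 1 FPKM were compared on the log2(FPKM + 0.1) scale, on which changes of low genes appear smaller than they are, before and after subtraction of the median difference of the 200 genes nearest in mean FPKM and length. The genes of the text are the 15 highest and 15 lowest relative differences among genes of at least 1 FPKM in siEGFP or siPiwi whose counting interval excludes equality, the 10 largest gains and 10 largest losses in FPKM among genes past 2-fold, the members of gene lists past 2-fold or at the ends of their list, runs of adjacent high genes, cell type markers and genes that the study names. Members and lists were chosen with earlier results of these data known, and 2 lists and the grouping by chromosome were added after seeing the data. Gene positions are those of RefSeq on Release 6. Alternatives concerned the pseudocount, the filter, the fold, the scaling, the use of the top transcript and the set of similar genes. Steps across all genes were tested on simulated data. The tools were Python 3.11.15 with scipy 1.17.1 for intervals, pandas 2.3.3 and numpy 2.4.6 for tables, and matplotlib 3.10.9 for plots.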

Additional observations from a re-analysis of the deposited data

How the results depend on the processing

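No paired analysis was possible because each condition had 1 library. For the same reason no replicate could be left out. The counts past 2-fold depended on the level at which genes were admitted and on the pseudocount. With a pseudocount of 1 FPKM 512 genes were above 2-fold and 111 below 0.5-fold unadjusted, and 166 and 200 on the relative scale. With a mean of at least 0.1 FPKM, 408 genes were below 0.5-fold unadjusted, and 660 were high and 669 low on the relative scale. With a mean of at least 5 FPKM the unadjusted counts were 574 and 106 and the relative counts 145 and 213. After scaling of the libraries to their median genes, 426 were above 2-fold and 370 below 0.5-fold unadjusted, so that the share of high genes among those past the threshold went from 81.8% to 53.5%. At 1.5-fold the unadjusted counts were 2388 and 508 and the relative counts 978 and 949, and at 4-fold they were 117 and 28, and 79 and 47. Among genes of at least 1 FPKM in siEGFP, a choice made after seeing the data, 174 were high on the relative scale. The other 28 of 50 values tried for these counts were within 1.5 times the reported count, among them the counts whose interval excludes equality (308 high and 342 low).

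The log2 difference of piwi was -1.21 after that scaling and between -0.90 and -0.94 otherwise. The median of chromosome 4 lay between -0.58 and -0.37 under the alternatives and was -0.25 for its genes of at least 5 FPKM in siEGFP. The relative median changed sign under at least 1 alternative in 27 of 64 lists, among them the Notch, ecdysone response, muscle and odorant and related receptor lists. It did not in the proteasome (0.17 to 0.39), the dNuRD and dMec subunits (0.45 to 0.66), glycolysis (-0.53 to -0.25) and the cytoplasmic ribosomal proteins (-0.41 to -0.17). Of 591 values tried for 56 named genes, 146 counted as moved from the reported value and none was counted as reversed. The relative difference of MEP-1, given above, did change sign when only its top transcript was used. Of the 547 values past 2-fold in the main setting, 538 remained past it on the same side. Many of these genes were named for their large differences, so their choice favoured this result. Depth limits the size of the largest differences. Several of the largest ratios rest on 2 to 8 reads in siEGFP, and genes listed at 0 there have at most a lower bound. The spread between cultures is not measured, and a difference between 2 cultures or 2 library preparations cannot be told apart from the loss of Piwi.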

Other observations

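Signalling genes held further members past 2-fold. Of 23 measured Notch pathway genes, numb, an inhibitor of Notch (0.348 to 2.29 FPKM), fng, a glycosyltransferase that modifies it (4.83 to 20.5), and E(spl)malpha-BFM (0.0806 to 0.544) were above 2-fold and none was below 0.5-fold, around a median of -0.10. Of 18 ecdysone response genes the early genes Eip74EF (0.284 to 0.996 FPKM) and Eip75B (0.605 to 2.07) and the ecdysone importer Oatp74D (5.95 to 20.8) were above 2-fold. ImpL2 (90.1 to 30.6) was below 0.5-fold, and the median was 0.17. Of 10 genes of the FGF and PVR group the receptors Pvr (2.69 to 9.92 FPKM) and Ret (3.64 to 20.97) were above 2-fold, and the ligand Pvf3 (0.299 to 0.0937) was below 0.5-fold. The ligand bnl and the receptor sev (109 to 82.3) were below 0.5-fold on the relative scale alone. In that group 2 genes lay above similar genes and the median was -0.83.

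A list of mRNA deadenylation and decapping factors was added after the values were seen. Of its 21 genes 4 were below 0.5-fold on the relative scale: Not1 (3.64 to 1.87 FPKM) and Not3 (6.33 to 4.23), subunits of the main deadenylase complex, the decapping enzyme DCP2 (5.37 to 2.61), and Tis11 (2.996 to 1.52), which binds AU-rich elements. The median was -0.04, and Ge-1 (5.39 to 15.5 FPKM) and me31B (34.2 to 61.5) were among 10 genes above similar genes.

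Genes in the pericentromeric parts of the arms were examined after chromosome 4, with limits at 22 Mb on 2L, 5.7 Mb on 2R, 23 Mb on 3L, 4.2 Mb on 3R and 22 Mb on X that were set by hand. Of 146 genes there, 15 (10.3%) were below 0.5-fold and 3 (2.05%) above 2-fold, with a median relative difference of -0.18, against 4.69%, 4.17% and 0.00 for the 7677 genes elsewhere on these arms. Haspin, a histone kinase, was at 20.3 FPKM in siEGFP and 7.17 in siPiwi, and Parp1, a poly(ADP-ribose) polymerase, at 7.74 and 4.49. The genes above 2-fold were lncRNA:CR45181 (4.08 to 12.998 FPKM), lncRNA:CR43967 (17.3 to 44.8) and CG3635 (chr2L:22175415-22183991), the last at 3.65 FPKM in siEGFP, 71.0 in siPiwi, 17.1 in siMi2 and 34.6 in the library labelled siRpd3. Relative to siEGFP the medians of these 146 genes were 0.34 in siMi2 and -0.41 in the library labelled siRpd3, again with the same control library.

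TE insertions annotated in the reference genome were compared with the high genes outside those parts, although the insertions of the OSC line itself were not used here. Of 117 genes with an insertion of a TE that was above 2-fold in siPiwi 15 (12.8%) were high, among them CG42335, Cda5, Fas2 and bab1. Of 7204 genes with no insertion 278 (3.86%) were high. Low genes were 8 (6.84%) and 329 (4.57%) of these 2 sets, and the median relative differences were 0.07 and 0.00. Genes with such an insertion were longer in the genome (median span 30976 against 2354.5 bp) and lower in siEGFP (median 4.34 against 14.5 FPKM). Among genes that span at least 20 kb, 13 of 71 with an insertion of such a TE (18.3%), 28 of 217 with any annotated insertion (12.9%) and 32 of 276 without (11.6%) were high. Low genes were 6 (8.45%), 13 (5.99%) and 20 (7.25%) of these sets. Their median relative differences were 0.05, 0.09 and 0.10. The 71 genes are part of the 217, and a link between these insertions and the differences was not tested.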
